A study of Macaca fascicularis with 16 samples.

Results

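The genes described here encode RGS proteins, the regulators of G-protein signalling, and were followed in the endometrium of postmenopausal cynomolgus macaques (Macaca fascicularis). Of 8 symbols listed, RGS1, RGS2, RGS3, RGS4, RGS5, RGS9, RGS10 and RGS16, the array's annotation gave a probe set of its own to 6. RGS1 and RGS9 had 1 probe set each, RGS2 and RGS16 had 2 each, and RGS4 and RGS10 had 3 each, which makes 12 probe sets of 52865 on the array. RGS3 and RGS5 are named only. The list was chosen from earlier results of these same data: RGS9 was picked for its low estradiol values, and which values picked the others is not recorded. The levels, differences and counts below are therefore a description, and the number of these genes that passed a test is not evidence about the family.

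RGS proteins end signals that start at G protein-coupled receptors. An activated receptor loads GTP onto a G alpha subunit, and an RGS protein speeds the hydrolysis of that GTP, so that the subunit returns to its resting state and recaptures the beta-gamma pair. RGS1, RGS2, RGS4 and RGS16 belong to the R4 subfamily of small proteins that are little more than the RGS domain, RGS9 belongs to the R7 subfamily, which works only as a complex with the atypical beta subunit GNB5, and RGS10 belongs to the R12 subfamily. In the uterus, G protein signals drive the contraction of muscle and vessels and the traffic of leukocytes.

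The 16 animals were randomized to 4 arms of 4 in parallel. The control arm received placebo, the estradiol arm low-dose micronized estradiol at 0.25 mg per 1800 kcal, the tamoxifen arm tamoxifen, a selective estrogen receptor modulator, at 20 mg per 1800 kcal, and the combination arm both agents. Endometrium was taken after 4 months and each animal's RNA was hybridised to 1 Affymetrix array, so p-values measure the spread between animals. The ages of the animals are not given in the sources used here.

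Array medians lay between 58.7 and 70.3 signal units, and the correlation between any pair of arrays between 0.853 and 0.971. PGR, the progesterone receptor gene that estrogen induces, rose by 1.26 on the log2 scale with estradiol (SE 0.22, adjusted p = 0.00115), and MKI67, a gene of dividing cells, by 1.50 (SE 0.28, adjusted p = 0.00156). ESR1, an estrogen receptor gene and also a check, differed by 0.54 with estradiol (SE 0.21, adjusted p = 0.0691). With tamoxifen and the combination, the differences were 0.85 and 0.64 for PGR (adjusted p = 0.0220 and 0.0657), -0.072 and 0.12 for MKI67, and 0.44 and 0.40 for ESR1. Endometrial cell markers were read on all arrays: the summed signal of 6 tested epithelial genes of 10 listed was 3108 to 3382 in the control arm and 4211 to 7733 over the treated arms, and that of 9 tested stromal genes of 10 listed was 21138 to 23662 in the control arm, 33000 to 36668 with estradiol, 24801 to 31576 with tamoxifen and 22627 to 30559 with the combination. Smooth muscle genes set a pair of animals apart. The summed signal of 9 tested muscle genes of 12 listed was 3176 on estradiol 4 and 19880 on tamoxifen 1, against 33782 to 50171 on the other arrays. Muscle was not the only difference: the same animals had the highest epithelial sums of all arrays (7022 and 7733). They also had the lowest pericyte sums of all arrays (2021 and 2516). Each had the lowest endothelial sum of its arm (3485 and 4247). No deposited value is 0. The log2 ratio of the 3′ to the 5′ actin probe sets, a sign of RNA length, was 0.76 to 1.02 in the control arm. It was 0.41 to 0.83 with estradiol, 0.47 to 0.57 with tamoxifen and 0.48 to 0.64 with the combination. Estradiol 4 (0.83) was the only treated animal within the control range, and all others were below it. The part of this ratio in the differences from control was not tested.

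RGS1, RGS2, RGS4, RGS9 and RGS16 had lower means in every treated arm than in the control arm. RGS4 was lowest with the combination, RGS9 and RGS2 with estradiol and RGS1 with tamoxifen, and RGS2 was below every control animal in all treated animals but with a wide spread. The 2 probe sets of RGS16 had the same direction but disagreed on size and on calls. RGS10 was the gene of the 6 whose estradiol mean was not below the control mean. Each gene was followed through its brightest probe set, and a gene is called changed where limma's adjusted p, taken over all 31659 probe sets tested, is under 0.05. Against control, 2 of the 6 genes were called lower with estradiol (RGS4 and RGS9), 3 with tamoxifen (RGS1, RGS4 and RGS9) and 2 with the combination (RGS1 and RGS4), and 0 were called higher by limma in any of the 3, nor at an unadjusted p under 0.05 (0 genes). Over all 10705 genes tested the share called lower was 13.2% for estradiol, 7.64% for tamoxifen and 9.09% for the combination, and the share called higher was 16.5%, 8.59% and 10.6%. The 3 comparisons share the control animals. The median difference of the 6 genes was -1.17, -1.14 and -0.90 on the log2 scale, beside 0.011, -0.018 and -0.013 over all genes.

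**Figure D1:**
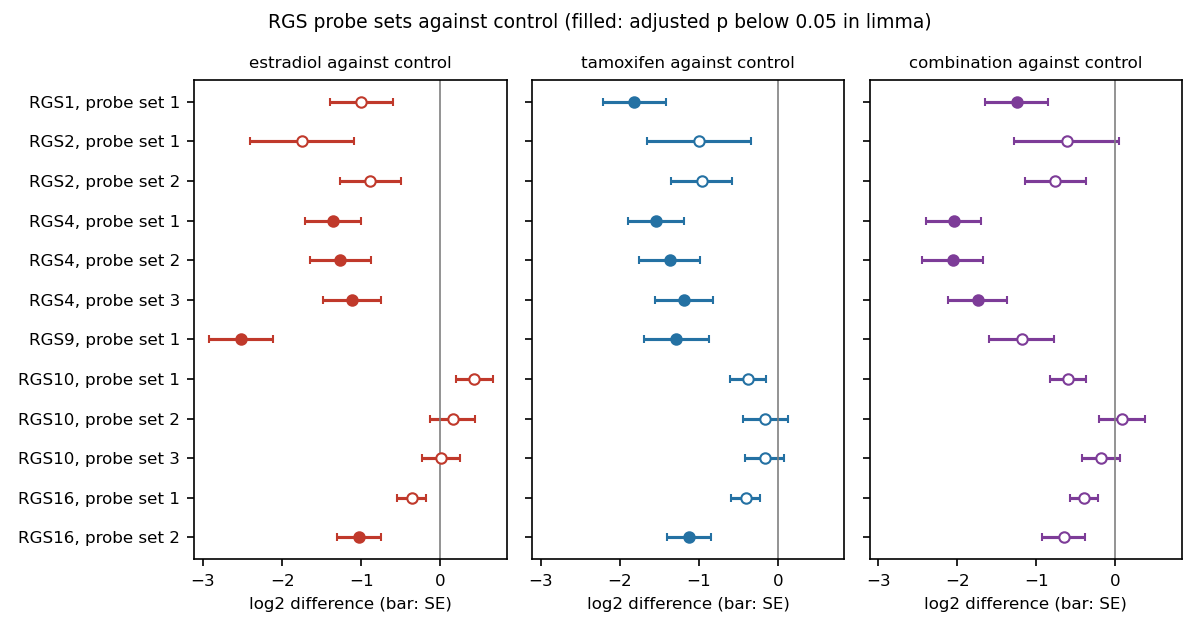
Difference from control of each RGS probe set, on the log2(signal + pseudocount) scale, for the estradiol, tamoxifen and combination arms; points are limma estimates and bars their standard errors, with 4 animals an arm. The 3 RGS4 probe sets lie between -1.11 and -2.06 in all arms, RGS9 reaches -2.52 with estradiol, and the RGS10 probe sets lie between -0.60 and 0.43.

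In terms of animals, every treated value lay below every control value for 4 of the 6 genes with estradiol (RGS2, RGS4, RGS9 and RGS16), for 3 with tamoxifen (RGS1, RGS2 and RGS9) and for 5 with the combination (all but RGS10). The same held for 13.0%, 11.6% and 13.9% of all genes tested.

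**Figure D2:**
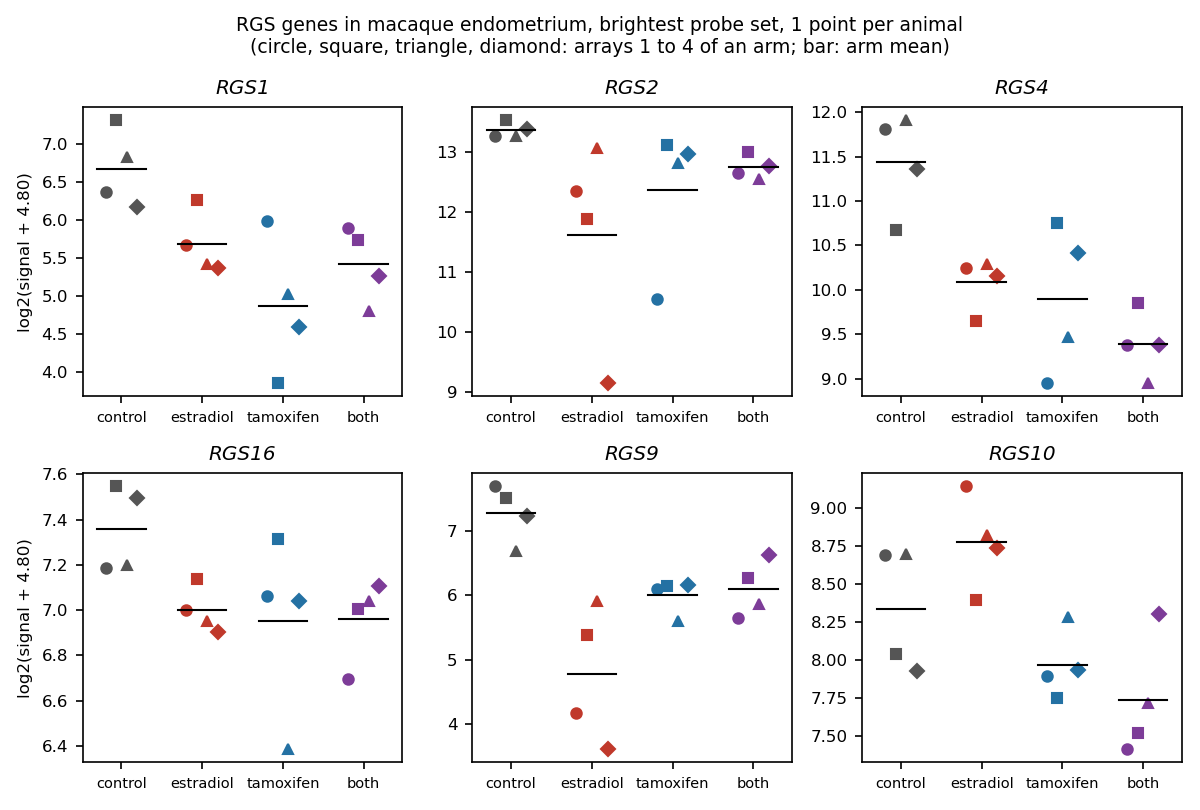
Level of the brightest probe set of each RGS gene on each of the 16 arrays, as log2(signal + pseudocount), grouped by arm (both: the combination arm); each point is 1 animal, its shape the animal's number, and each line the arm's mean. RGS4 is lowest in the combination arm, RGS9 in the estradiol arm and RGS1 in the tamoxifen arm, while RGS2 has 1 far lower animal in the estradiol arm and 1 in the tamoxifen arm.

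RGS4 acts on the Gi and Gq classes of alpha subunit and is known from neurons, heart and vessel walls. Its brightest probe set read 3595, 1623, 3844 and 2618 signal units in control animals 1 to 4, and 1206, 799, 1247 and 1136 in the estradiol animals. The tamoxifen animals read 489, 1716, 706 and 1357, and the combination animals 663, 917, 490 and 662. All estradiol and combination animals were below the lowest control animal, while tamoxifen 2 was above it. The level fell by 1.35 with estradiol on the log2 scale (SE 0.35, adjusted p = 0.0110), by 1.54 with tamoxifen (SE 0.35, adjusted p = 0.0106) and by 2.05, or 4.13-fold, with the combination (SE 0.35, adjusted p = 0.00173). The other 2 RGS4 probe sets, in order of brightness, followed the first over the 16 arrays (r = 0.98 and 0.97), and their differences were -1.26 and -1.11 with estradiol, -1.37 and -1.19 with tamoxifen and -2.06 and -1.74 with the combination. The 3 calls of the brightest probe set held under every alternative run, leaving out 1 animal at a time included (adjusted p up to 0.0487). Leaving out 1 animal ended the estradiol call of the second probe set for 5 of 8 animals and of the third for 6 of 8, and the tamoxifen call of each for 5 of 8; without tamoxifen 1 the third gave -0.79 with tamoxifen (adjusted p = 0.116). The arms that received 1 agent were not separated from the combination arm: the combination minus estradiol was -0.69 (SE 0.35, adjusted p = 0.352).

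Markers of the cells of vessel walls are given beside RGS4. The summed signal of 8 tested pericyte genes of 10 listed was 3039 to 3399 in the control arm, 2021 to 3911 with estradiol, 2516 to 4708 with tamoxifen and 3998 to 4337 with the combination. KCNJ8, a pericyte potassium channel gene, was lower with estradiol (-1.40), MCAM, an adhesion gene, was higher with the combination (0.86), and no other of the 8 was called against control. Endothelial genes (9 tested of 10 listed) summed to 6299 to 7888 in the control arm, 3485 to 5889 with estradiol, 4247 to 6877 with tamoxifen and 4623 to 6075 with the combination. The estradiol and combination sums did not overlap those of the control arm. In the tamoxifen arm the overlapping animal was tamoxifen 3 for the endothelial sum (6877) and tamoxifen 2 for RGS4 (1716). Tamoxifen 1 was the lowest of its arm for both (4247 and 489). The pericyte sums of tamoxifen 1 to 4 (2516, 4708, 3075 and 4164) had the same order as RGS4. In the control, estradiol and combination arms the pericyte and RGS4 orders differed. Estradiol 4 had the lowest pericyte and endothelial sums of its arm (2021 and 3485). The mean endothelial sum was lowest with estradiol (4531, beside 5608 with the combination), while RGS4 was lowest with the combination. Of the 9, 5 were called lower with estradiol, 1 with tamoxifen and 1 with the combination, with median differences of -0.58, -0.23 and -0.32. The part of these cells in the RGS4 values was not tested. In bulk tissue, fewer cells of a type and less RNA per cell cannot be told apart.

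RGS2 prefers Gq, the alpha subunit that triggers calcium release and contraction in smooth muscle. The brightest RGS2 probe set read 9770, 11803, 9868 and 10602 in the control animals and 5200, 3774, 8504 and 560 in the estradiol animals. With tamoxifen it read 1490, 8843, 7169 and 7962, and with the combination 6409, 8127, 6008 and 6935. All 12 treated animals were below the lowest control animal, and no comparison with control was called; estradiol 4 and tamoxifen 1 lay far below the rest of their arms. The differences from control were -1.75 with estradiol (SE 0.66, adjusted p = 0.0631), -0.9997 with tamoxifen (SE 0.66, adjusted p = 0.339) and -0.62 with the combination (SE 0.66, adjusted p = 0.568). The dimmer second probe set gave -0.89, -0.96 and -0.76, with adjusted p of 0.106, 0.111 and 0.197, and its arms overlapped the control arm.

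The 2 animals with the lowest RGS2 were those with the lowest smooth muscle signal. Without both, RGS2 differed from control by -0.93 with estradiol (SE 0.20, adjusted p = 0.00467), by -0.40 with tamoxifen (adjusted p = 0.220) and by -0.62 with the combination (adjusted p = 0.0314). Because the animals left out had the lowest RGS2 itself, the spread narrowed (SE 0.66 with all animals). These adjusted p are therefore a description only. Estradiol 4 alone moved the estradiol difference from -1.75 to -0.93 (adjusted p = 0.167 without it), and leaving out estradiol 3 took it to -2.23 (adjusted p = 0.0207). The other 3 estradiol animals had muscle sums of 39203 to 42363, beside 33782 to 40257 in the control animals, with RGS2 at 3774 to 8504. The part of muscle content in the RGS2 differences was not tested. Of the 9 muscle genes, limma called 0 against control, with 1 at an unadjusted p under 0.05 with estradiol and 0 in the other arms; their median difference was -0.77 with estradiol, -0.0025 with tamoxifen and 0.48 with the combination. The second probe set without both animals gave -0.39 with estradiol (adjusted p = 0.247), -0.78 with tamoxifen (adjusted p = 0.0459) and -0.76 with the combination (adjusted p = 0.0243).

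**Figure D3:**
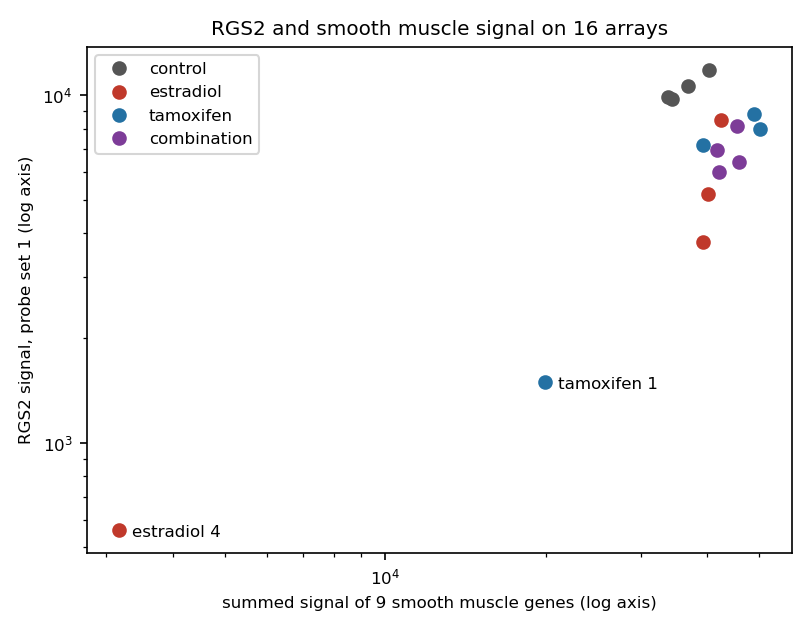
Signal of the brightest RGS2 probe set against the summed signal of 9 smooth muscle genes on 16 arrays, both on log axes, coloured by arm. Estradiol 4 (muscle 3176, RGS2 560) and tamoxifen 1 (19880 and 1490) stand apart at the lower left; among the other 14 arrays the control animals have the highest RGS2, with muscle sums of 33782 to 40257.

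RGS16 acts on Gi and Gq and is induced by inflammatory and mitogenic signals. Its brighter probe set read 141, 182, 142 and 175 in the control animals and 123, 136, 119 and 115 with estradiol, so that these arms did not overlap. Tamoxifen animals read 129, 154, 78.7 and 127 and combination animals 98.9, 124, 127 and 133. The differences were small, -0.36, -0.41 and -0.40 (SE 0.18 each), and none was called, with adjusted p of 0.160, 0.147 and 0.151. The second RGS16 probe set read 95.3 to 179 in the control arm, 48.9 to 79.5 with estradiol, 40.2 to 101 with tamoxifen and 60.4 to 115 with the combination. It fell by 1.03 with estradiol (SE 0.28, adjusted p = 0.0133) and by 1.12 with tamoxifen (SE 0.28, adjusted p = 0.0153), and differed by -0.65 with the combination (SE 0.28, adjusted p = 0.119). The probe sets correlated at r = 0.78 over the arrays and disagree on size, so the RGS16 change depends on which one is read; followed through the mean of both, RGS16 was called with estradiol (-0.69, adjusted p = 0.0266) and with tamoxifen (-0.77, adjusted p = 0.0285).

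RGS genes of the R4 group can be induced together with immediate early genes, the first genes that cells switch on after a signal or during handling. The summed signal of 9 tested immediate early genes of 13 listed was 6674 to 11609 in the control arm, 4098 to 5292 with estradiol, 5671 to 7883 with tamoxifen and 6602 to 8353 with the combination. Of these 9, 3 were called lower with estradiol, 2 with tamoxifen and 1 with the combination; FOS, a subunit of the AP-1 transcription factor, was lower in all 3 (-2.26, -1.60 and -1.55). Every estradiol sum was below every control sum; the part of this in the RGS differences was not tested.

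RGS1 restrains the response of lymphocytes to chemokines. Its single probe set read 78.1, 155, 109 and 67.5 in the control animals and 46.1, 71.9, 38.0 and 36.6 with estradiol. With tamoxifen it read 58.9, 9.58, 27.7 and 19.2, and with the combination 54.7, 48.5, 23.1 and 33.7. Estradiol 2 overlapped the control range, and all tamoxifen and combination animals were below it. RGS1 fell by 1.81, or 3.51-fold, with tamoxifen (SE 0.40, adjusted p = 0.00870) and by 1.25 with the combination (SE 0.40, adjusted p = 0.0434), and differed by -0.996 with estradiol (SE 0.40, adjusted p = 0.0778). The tamoxifen call held under every alternative in which RGS1 was tested, without any 1 animal included (adjusted p up to 0.0380). The combination call held only without control 4 and was lost without each of the other 7 animals compared (adjusted p up to 0.121). On these arrays RGS1 was dim, and with a stricter filter on low signal it would not have been tested.

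Genes of T and NK cells, which are rich in RGS1, are given beside it. The summed signal of 7 tested genes of 12 listed was 5278 to 7543 in the control arm, 4121 to 6746 with estradiol, 4150 to 5616 with tamoxifen and 3307 to 4920 with the combination. CD69, CD8A, NKG7 and EOMES were called lower with tamoxifen, CD8A, GZMB, NKG7 and EOMES with the combination, and CD69 with estradiol. The median difference of the 7 was -0.45 with estradiol, -1.02 with tamoxifen and -1.23 with the combination. It was thus lowest with the combination, while RGS1 was lowest with tamoxifen. Macrophage genes summed to 1419 to 3047 in the control arm and 1014 to 1631 with tamoxifen, with 1 of 7 tested of 10 listed (TYROBP) called lower with the combination. Of 7 B and plasma cell genes, 2 were tested and limma called 0 against control, with 0 at an unadjusted p under 0.05. Mast cells had 3 tested genes of 6: GATA2, a transcription factor shared with other cells, was lower in all 3 treated arms, CPA3, a mast cell protease, was lower with estradiol, and KIT, the receptor that mast cells need to survive, was higher with estradiol (1.15) and the combination (1.23). The part of these cells in the RGS1 values was not tested.

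RGS9 is best known from the retina and the striatum, where it shortens the response to light and dopamine. Its single probe set read 204, 178, 98.4 and 147 in the control animals and 13.2, 37.0, 55.8 and 7.34 with estradiol. Tamoxifen animals read 63.9, 66.1, 43.6 and 66.9 and combination animals 45.2, 72.3, 53.9 and 93.8. Every treated animal was below the lowest control animal, and estradiol 4 and estradiol 1 were the lowest of all 16. The estradiol difference, on which the gene was picked, was -2.52 (SE 0.41), a 5.74-fold lower level on the scale with the pseudocount added. RGS9 fell by 1.29 with tamoxifen (SE 0.41, adjusted p = 0.0498), and the combination difference was -1.19 (SE 0.41, adjusted p = 0.0618). The tamoxifen call is marginal: it was kept without control 3 and lost without each of the other 7 animals compared, with adjusted p up to 0.121.

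GNB5, the beta subunit that R7 proteins need for stability, was also lower with estradiol in its brightest probe set. Its 1 other tested probe set is not described here. The brightest read 442, 496, 521 and 363 in the control animals, 274, 203, 332 and 107 with estradiol, 288, 342, 402 and 390 with tamoxifen and 289, 404, 340 and 385 with the combination. All estradiol animals were below all control animals, while the other 2 treated arms overlapped the control arm. The fall was 1.08 with estradiol (SE 0.26, adjusted p = 0.00709), and the differences were -0.35 with tamoxifen (adjusted p = 0.393) and -0.36 with the combination (adjusted p = 0.379). Of the 11 listed partners of RGS proteins, 6 were tested: beside GNB5, SNX13 was lower with estradiol (-0.30) and SNX25 higher with estradiol (0.46) and the combination (0.29), both being sorting nexins with an RGS-like domain. With tamoxifen limma called 0 of the 6, with 3 at an unadjusted p under 0.05. SNX13 and SNX25 had 3 other tested probe sets each, which are not described here. RGS9 and GNB5 shared their lowest animal, estradiol 4, which had little smooth muscle signal. Tamoxifen 1, also low in muscle signal, read 63.9 for RGS9 and 288 for GNB5, the lowest GNB5 of its arm. Next lowest of all arrays were estradiol 1 for RGS9 (13.2) and estradiol 2 for GNB5 (203), with muscle sums of 40193 and 39203. The part of muscle content in the RGS9 and GNB5 values was not tested.

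RGS10 is a small Gi regulator known from microglia, macrophages and platelets. Its brightest probe set read 409, 258, 409 and 238 in the control animals and 560, 331, 446 and 421 with estradiol. With tamoxifen it read 233, 211, 307 and 240, and with the combination 165, 178, 206 and 310. No arm was separated from control, and the differences were 0.43 with estradiol (SE 0.23, adjusted p = 0.180), -0.37 with tamoxifen (adjusted p = 0.301) and -0.60 with the combination (SE 0.23, adjusted p = 0.0872). The other 2 probe sets barely followed the first (r = 0.016 and 0.33) or each other (r = 0.27), and their differences from control lay between -0.18 and 0.16. The RGS10 values thus come from probe sets that disagree.

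Comparing treated arms asks whether the agents act differently alone and together. RGS10 was the 1 gene of the 6 called between the combination and estradiol arms, against 1.33% of all genes: its brightest probe set differed by -1.04 (SE 0.23, adjusted p = 0.0420), and every combination animal was below every estradiol animal. Its other probe sets gave -0.074 and -0.19 (adjusted p = 0.934 and 0.761), and the call was lost without estradiol 1, estradiol 4 or any of combination 1, 2 and 3 (adjusted p up to 0.150). RGS9, picked for its low estradiol values, is given here as a description: its difference was 1.33 for the combination minus estradiol (SE 0.41) and 1.23 for tamoxifen minus estradiol (SE 0.41), neither called. Leaving out 1 estradiol animal moved these to between 0.94 and 1.72 and between 0.85 and 1.62, lowest without estradiol 4 and highest without estradiol 3, the latter the 1 case in which both were called. Between tamoxifen and estradiol limma called 0 of the 6 genes, against 0.710% of all genes called. At an unadjusted p under 0.05 there were 2 of the 6 genes (1 in each direction) and 4087 of the 31659 probe sets tested.

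Between the combination and tamoxifen arms limma called 0 of the 6 genes and 0% of all genes; at an unadjusted p under 0.05 there were 0 of the 6 genes and 1283 of all probe sets. The 6 genes differed by -0.51 (RGS4) to 0.56 (RGS1) between these arms. The interaction asks whether the combined difference from control departs from the sum of the single ones. It was positive and called for RGS9 (2.62, SE 0.58), 1 of the 6 genes, against 11.3% of all genes called in either direction, and it contains the estradiol difference on which RGS9 was picked. The single differences of RGS9 were -2.52 and -1.29, and the combination, with both agents, stood at -1.19. The RGS9 interaction ranged from 1.76 to 3.00 under the alternatives, and its estradiol values were dim (down to 7.34). The second RGS16 probe set also had a positive interaction (1.50, SE 0.39, adjusted p = 0.0266), which was lost without any 1 of 6 animals (control 4, estradiol 1, tamoxifen 3 or 4, combination 3 or 4; adjusted p up to 0.0585), and the brighter one gave 0.37 (adjusted p = 0.386). RGS1 (1.56, SE 0.56, adjusted p = 0.0911), RGS2 (2.13, SE 0.93, adjusted p = 0.162) and RGS4 (0.85, SE 0.50, adjusted p = 0.301) were not called.

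Of 13 other RGS family genes listed, 10 were annotated and 6 passed the filter on low signal. RGS22, a large family member known from testis, rose by 1.28 with tamoxifen (SE 0.31, adjusted p = 0.0155) and by 1.14 with the combination (adjusted p = 0.0232). It read 42.6, 23.6, 47.2 and 31.5 in the control animals, 43.4, 96.1, 44.5 and 80.7 with estradiol, 163, 62.2, 67.7 and 103 with tamoxifen and 86.6, 68.1, 105 and 77.8 with the combination. All animals of both tamoxifen-treated arms were above all control animals. Other R7 members were called in 1 arm each: RGS11 was lower with estradiol (-1.01, SE 0.34, adjusted p = 0.0409) and RGS7 with the combination (-1.13, SE 0.36, adjusted p = 0.0425).

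The median difference of the 6 tested was -0.0049 with estradiol, -0.28 with tamoxifen and -0.24 with the combination.

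The rest of the pathway was read from lists of its parts. Among receptors of vessels and uterus, 19 of 40 listed were tested, and 3 were called higher and 3 lower with estradiol, 1 and 3 with tamoxifen, and 3 and 2 with the combination; their median differences were -0.0037, -0.13 and -0.078. OXTR, the oxytocin receptor, was lower with estradiol (-1.98) and tamoxifen (-1.63), AGTR2, an angiotensin receptor, was higher with estradiol (2.60), and S1PR3, a sphingosine-1-phosphate receptor, was higher with estradiol (1.69). F2RL1 and F2RL2, receptors cut by proteases, moved apart: with tamoxifen F2RL1 was higher (1.23) and F2RL2 lower (-1.77), while TBXA2R, the thromboxane receptor, was lower with tamoxifen (-0.65) and the combination (-0.64). HTR2A, a serotonin receptor, was higher with the combination (1.29).

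Of 16 G alpha genes, 4 were tested, and GNAO1, a Gi-class subunit best known from neurons, rose in all 3 treated arms, by 1.01, 1.14 and 1.13 (adjusted p = 0.00950, 0.00968 and 0.00870). GNA14, of the Gq class, rose by 1.51 with the combination. Of 16 beta and gamma genes, 9 were tested, and 0 were called by limma with estradiol (2 at an unadjusted p under 0.05), 1 with tamoxifen and 2 with the combination, led by GNG11, a gamma subunit, at 0.98 with tamoxifen and 0.95 with the combination (SE 0.14). Among effectors, 16 of 24 were tested: 4 were lower and 0 higher with estradiol, 2 and 1 with tamoxifen, and 3 and 1 with the combination, with medians of -0.33, -0.14 and -0.12. ADCY9, an adenylyl cyclase that makes cyclic AMP, was lower in each treated arm (-0.62, -0.60 and -0.57), and ITPR1, a calcium release channel, was lower with estradiol (-0.96). Of 13 receptor kinases, arrestins and other G alpha regulators, 11 were tested: ARRB2, an arrestin that uncouples receptors, was lower in each treated arm (-0.37, -0.59 and -0.55), and GPSM2, which holds G alpha in its GDP-bound form, was higher with estradiol (1.25) and the combination (1.08).

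**Figure D4:**
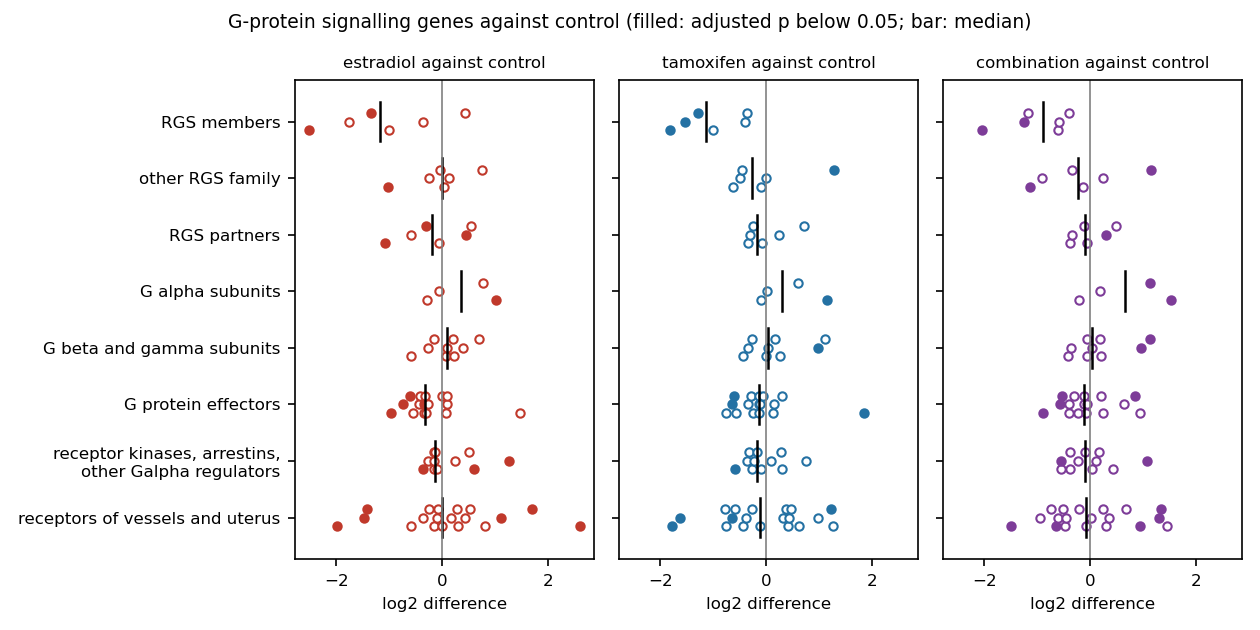
Difference from control, on the log2 scale, of each RGS gene and each tested gene in the lists of the G protein pathway, for the 3 treated arms. Each point is a gene's brightest tested probe set, filled where limma's adjusted p is under 0.05, and each bar is a list's median. Receptors have 3 called higher and 3 called lower of 19 tested with estradiol, and effectors 0 called higher and 4 called lower of 16.

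The genes most like each RGS gene were found by Pearson's r of log2 values over the 16 arrays, as a description with no test. The arrays share the arms, and for RGS2 the low values of estradiol 4 and tamoxifen 1. RGS2 was closest to TACC1, a coiled-coil protein of the spindle (r = 0.98), LOC695267 (r = 0.98) and MEIS2, a homeobox factor (r = 0.97), and these were as high with the arm means removed (r = 0.98, 0.98 and 0.97). RGS9 was closest to EZH1, a histone methyltransferase (r = 0.93), DNMT1, a DNA methyltransferase (r = 0.92), and CBX7, a Polycomb protein (r = 0.91), which became 0.77, 0.71 and 0.67 without arm means. RGS4 was closest to CUL1 (r = 0.89), NEDD4 (r = 0.87) and LOC705310 (r = 0.87), the first a scaffold of ubiquitin ligases and the second a ubiquitin ligase, and r fell to 0.62, 0.45 and 0.50 within arms. RGS1 was nearest to ZNF627 (r = 0.88), RGS16 to CTPS2, a CTP synthase (r = 0.80), and RGS10 to TRIM5, a restriction factor (r = 0.86). The likeness of RGS4 thus followed the arms more than that of RGS2.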

How the data were processed

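Total RNA of frozen endometrium from 16 animals was amplified, labelled and hybridised, 1 array an animal, per the labels' protocols. GCOS, MAS5 and Affymetrix Expression Console appear in the submitters' processing notes. The deposited values are the authors' MAS5 signal intensity, linear, with the same trimmed mean (250.0) on all arrays; a genome build was not given in the sources used here. From them log2(signal + 4.80) was computed, the pseudocount being the 10th percentile of all values. The authors deposited no log2 values. Probe sets in the lowest 40% by mean over all arrays and 99 control probe sets were left out, which left 31659 of 52865. Symbols came from the platform annotation: 24956 probe sets had 1 symbol and 361 had several. limma 3.58.1 in R 4.3.3 fitted 4 arm means to 16 arrays (lmFit, eBayes with trend, 12 residual degrees of freedom), with 7 contrasts and Benjamini-Hochberg adjustment over all probe sets tested; the code was tested on simulated data. The number of arrays limits the precision.

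Named are every probe set of the RGS list, up to 3 genes a list with the smallest p, 3 genes most like each RGS gene, and ESR1, PGR and MKI67 as checks. FOS, KCNJ8, MCAM and the other cell markers called were named after their values were seen. The members, lists, markers and rules were chosen with earlier results of these data known. Marker lists covered pericytes, smooth muscle, endothelium, T and NK, B and plasma, macrophage and mast cells, epithelium, stroma and immediate early genes. Stromal genes had 6, 4 and 4 of 9 called higher, and epithelial genes 3 of 6 in each arm. Alternatives were other pseudocounts, filters, scalings, fits and left-out animals. Replicate numbers do not pair animals. No sequence or promoter was analysed here.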

Additional observations from a re-analysis of the deposited data

Results flagged for a closer look

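In 4 of 48 groups of 4 arrays examined, 1 animal stood apart from its arm, judged by its gap to the nearest other animal as a share of the arm's range; chance gives about 1 in 20 groups. For RGS2 (brightest probe set) tamoxifen 1 was low, at 1490 against 7169 to 8843, a share of 0.882. For RGS9 tamoxifen 3 was low, at 43.6 against 63.9 to 66.9, a share of 0.892. For the second RGS10 probe set, control 3 was low at 130 (0.838) and tamoxifen 1 at 157 (0.931). Tamoxifen 1 is 1 of the 2 animals with little smooth muscle signal.

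A pair of probe sets had an interaction of estradiol and tamoxifen past limma's threshold. That of RGS9 was 2.62 on the log2 scale and contains the estradiol difference on which the gene was picked, so it is a description only. That of the second RGS16 probe set was 1.50; it lost its call without any 1 of 6 of the 16 animals, and the brighter probe set had 0.37.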

How the results depend on the processing

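Of 919 values of single RGS probe sets under alternatives, 812 kept direction and side of the threshold, 76 lost the call, 23 gained one and 8 changed sign, the 8 all being RGS10. The cause of a change was not tested, except that fewer genes were tested with the lowest 60% out. The number of RGS genes called for the combination against control went from 2 to 1 with pseudocount 1, no filter, the lowest 60% out, quantile normalization or median centring, and to 4 with array weights, with only the arms compared, or without estradiol 4 and tamoxifen 1 together. For the combination against estradiol it went from 1 to 0 with no filter, median centring, eBayes without trend, only the arms compared, the mean of a gene's probe sets, or without estradiol 4 and tamoxifen 1 together. With the lowest 60% out, RGS1 and RGS9 were not tested, and the count was 1 for estradiol, 1 for tamoxifen and 0 for the interaction; without estradiol 4 and tamoxifen 1 together the interaction count was 2. Leaving out 1 animal at a time gave 1 to 2 for the combination against control, 0 to 2 for the combination against estradiol, 0 to 1 for tamoxifen against estradiol and 1 to 2 for the interaction.

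Leaving out 1 animal turned the sign of RGS10 differences from control that were never called: probe set 2 ranged from -0.14 to 0.42 with estradiol, from -0.21 to 0.22 with the combination, and from -0.46 to 0.00051 with tamoxifen (also 0.00051 without estradiol 4 and tamoxifen 1 together), and probe set 3 from -0.096 to 0.19 with estradiol.

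With replicate number as a block the combination count against control was 1; same-numbered arrays had a median r of 0.0052 (24 pairs, 0 over 0.1), so the numbers pair nothing. Probe sets called among all tested also moved: the combination against estradiol from 385 to 221 with no filter, 214 with median centring, 1687 with array weights and 93 with only the arms compared; tamoxifen against estradiol from 180 to 718 with array weights and 0 with only the arms compared; tamoxifen against control from 4214 to 2714 with only the arms compared. The planned promoter motif search was not run.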
